A study of Mus musculus with 8 samples.

Results

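The transcripts followed here in mouse retina belong to the neuronal injury response: Map3k12, Jun, Atf3, Sox11, Tnfrsf12a, Gal, Ecel1 and Sprr1a. They were chosen by name, as genes that are induced in injured retinal ganglion cells or that encode regulators of that induction, and all 8 of 8 were found among the 54532 genes of the deposited tables. Poly(A)-selected RNA was sequenced as 150 bp paired-end reads from 8 retina libraries, 4 labelled sIVs (small intracellular vesicles, membrane vesicles taken from inside cells) and 4 labelled PBS, the control group, with replicates numbered 1, 3, 4 and 5 in each. By its title the series is about uptake of such vesicles, drug carriage and neuroprotection in the retina, so the comparison asked how these transcripts stood in sIVs retinas relative to PBS retinas. Strain, genotype, sex, age, dose, route, time and injury model are not given in the labels of either group. The labels do not say whether the libraries came from separate animals, so p-values measure the spread between these libraries, which may be technical.

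Retinal ganglion cells send their axons through the optic nerve to the brain, and damage to those axons sets off a transcriptional programme in the cell body. Dual leucine zipper kinase (DLK), encoded by Map3k12, senses axon damage and activates the kinases MKK4 and MKK7, which activate the JUN N-terminal kinases (JNK). JNK phosphorylates the transcription factor JUN, and together with ATF3 and SOX11 it drives targets that include both growth and death genes. In mouse optic nerve injury, loss of DLK protects ganglion cells and also limits axon regrowth.

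The proximal promoters of the members were searched because several of these factors act on each other's genes, and the 4 windows with a match are shown. RefSeq (GRCm38.p6, the assembly that mm10 denotes) gave 9 promoter windows for the 8 members, each read here as the 250 bases before the transcription start, and Map3k12 had 2 of them. The letters searched on both strands were TGANTCA (the AP-1 site, bound by JUN dimers), TGACGTCA (the cAMP response element, CRE), TGACATCA (a variant bound by JUN with ATF2) and TGATGCAA (a composite site for CHOP and ATF4). The 6 matches found did not overlap each other. Matches stood in 4 of the 9 windows, those of Atf3, Jun, Sox11 and Sprr1a, and in 11.6% of 32851 windows of mouse genes. By motif the shares of all windows were 6.75% for TGANTCA, 1.55% for TGACGTCA, 2.93% for TGACATCA and 0.791% for TGATGCAA. Below, capitals mark the matches on the strand of the gene, 5′ to 3′, and the last base is the one before the start. Atf3 lies at chr1:191183334-191183583, Jun at chr4:95052223-95052472, Sox11 at chr12:27342719-27342968 and Sprr1a at chr3:92485882-92486131, all on the minus strand. Starts are those of RefSeq and can differ from the ends of the deposited genes. The Atf3 window lies inside the deposited gene, which runs to 191218039, and the stretch before that end was not searched. The Sox11 window begins beyond the deposited gene, which runs to 27342574.
Atf3: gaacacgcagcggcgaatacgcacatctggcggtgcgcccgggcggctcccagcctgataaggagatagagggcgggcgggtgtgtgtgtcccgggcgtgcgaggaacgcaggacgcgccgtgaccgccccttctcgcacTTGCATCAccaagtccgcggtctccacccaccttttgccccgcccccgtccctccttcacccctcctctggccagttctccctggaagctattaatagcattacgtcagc
Jun: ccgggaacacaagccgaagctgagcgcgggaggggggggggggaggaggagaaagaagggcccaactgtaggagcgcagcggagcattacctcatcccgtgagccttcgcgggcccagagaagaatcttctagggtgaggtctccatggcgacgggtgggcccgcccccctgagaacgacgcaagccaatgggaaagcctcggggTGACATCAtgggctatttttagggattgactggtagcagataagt
Sox11: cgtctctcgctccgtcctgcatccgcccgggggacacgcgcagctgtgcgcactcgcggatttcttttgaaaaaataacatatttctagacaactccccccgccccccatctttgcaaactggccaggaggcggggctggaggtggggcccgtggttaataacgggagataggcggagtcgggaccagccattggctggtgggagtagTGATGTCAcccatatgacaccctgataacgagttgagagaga
Sprr1a: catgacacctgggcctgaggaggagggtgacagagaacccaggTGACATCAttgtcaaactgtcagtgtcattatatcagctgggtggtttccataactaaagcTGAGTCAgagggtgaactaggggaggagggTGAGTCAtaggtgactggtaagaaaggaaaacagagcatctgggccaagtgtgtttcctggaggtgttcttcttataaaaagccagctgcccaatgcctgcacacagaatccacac

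The match in Jun, a gene known to be activated by its own protein, began 45 bases before the start, and that in Sox11 began 42 bases before it on the opposite strand. Sprr1a held 3 matches, of which the AP-1 sites began 146 and 116 bases before the start. No match was found in the windows of Ecel1, Gal, Map3k12 and Tnfrsf12a. A match is a description of letters and not of binding.

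A pair of libraries stood apart in ways that touch the members. Counts summed to between 13915203 and 16009589 in sIVs libraries and to between 13803958 and 16622259 in PBS libraries. In sIVs replicate 4 the 9 tested and 3 untested markers of the retinal pigment epithelium summed to 465 CPM (counts scaled to a common normalized library size), against 20.8 to 84.4 CPM in the other 7 libraries. The 2610 tested genes with a listed length of at least 8000 bases had a median 0.51 below their own 8-library mean there on the log2 CPM scale, and the 1238 genes under 1000 bases one 0.42 above it. In the other 7 libraries these medians lay between -0.07 and 0.14 for long genes and between -0.08 and 0.05 for short ones. PBS replicate 1 had the lowest summed level of 12 reactive gliosis transcripts, 93.2 CPM against 238 to 1016 CPM in the other libraries. All 16 retinal ganglion cell markers listed as a check of the tissue passed the count filter, and they summed to between 987 and 1234 CPM in sIVs libraries and to between 1016 and 1059 CPM in PBS libraries.

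No difference between sIVs and PBS retinas passed the test for any of the 8 transcripts. With edgeR, 0 of the 8 were called at an adjusted p of 0.05, the call rate of all 17004 tested genes being 0% as well, with 255 genes (1.5%) below 0.05 before adjustment. The counts of calls were also 0 by DESeq2, with 322 genes below 0.05 before adjustment, and 0 by limma-voom under quality weights, with 455. Of the members, 5 passed the count filter (Map3k12, Jun, Atf3, Sox11 and Tnfrsf12a) and 3 did not (Gal, Ecel1 and Sprr1a), and 0 of the 8 had an unadjusted p under 0.05. In 0 of the 8 were the sIVs and PBS libraries free of overlap in CPM, a separation seen in 2.01% of all genes tested (1.08% with sIVs higher and 0.929% with sIVs lower). On the FPKM scale the same counts were 0 of 8 and 2.05%. Log2 fold changes of the 5 filtered members lay between -0.06 and 0.12, against a median of 0.01 over all genes tested.

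**Figure D1:**
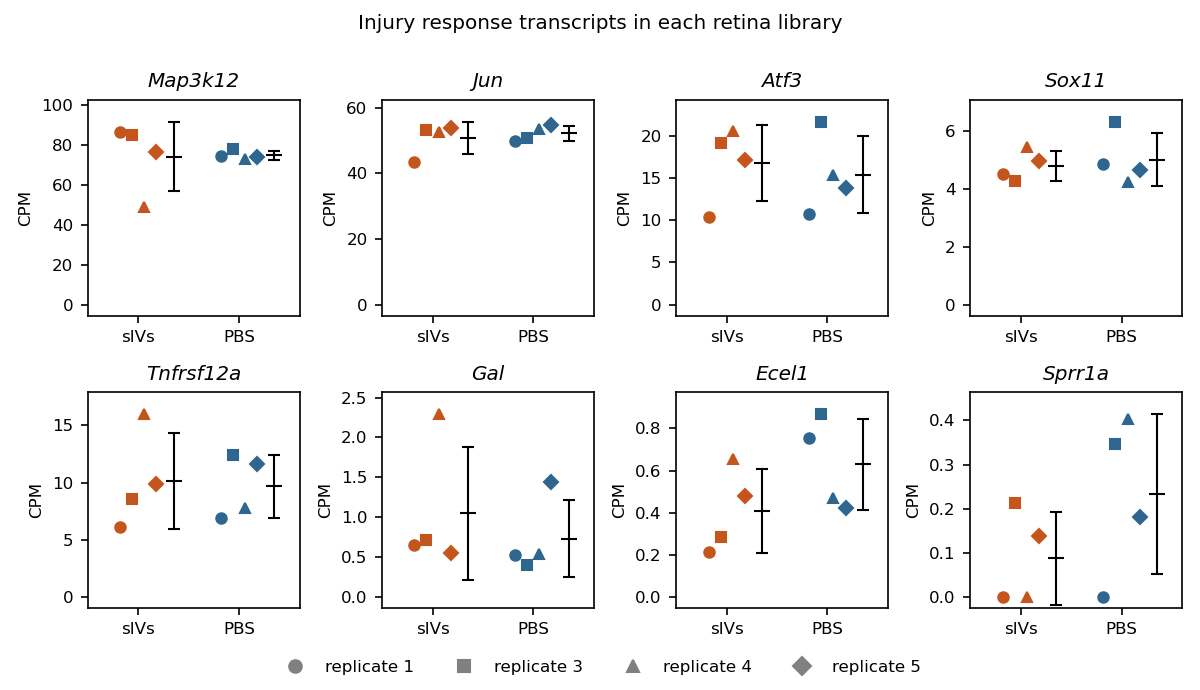
CPM of each transcript (vertical axis, linear) in each sIVs (orange) and PBS (blue) library, with symbols for the replicate number and black bars for the mean and SD of the 4 libraries. The groups overlap in all 8 panels, and single libraries stand off, such as sIVs replicate 4 at 48.9 CPM for Map3k12 and at 2.29 CPM for Gal.

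The 8 transcripts spanned a wide range of levels. FPKM, fragments per unit of gene length and of sequencing depth, is the scale on which levels of different genes were compared. Jun averaged 15.8 ± 1.13 FPKM over the 8 libraries (SD, n = 8), which placed it above 80.0% of genes tested. Map3k12 averaged 8.14 ± 1.27 FPKM, Atf3 7.32 ± 1.94 FPKM and Tnfrsf12a 5.02 ± 1.66 FPKM (SD, n = 8 each). Gal followed at 1.22 ± 0.89 FPKM, Sox11 at 0.578 ± 0.0812 FPKM, Sprr1a at 0.195 ± 0.193 FPKM and Ecel1 at 0.145 ± 0.0634 FPKM (SD, n = 8 each). Jun lay above Map3k12, and Sox11 above Sprr1a, with no overlap of their ranges. Ranges of the other neighbours in this order overlapped, although Atf3 was above Tnfrsf12a, and Tnfrsf12a above Gal, in 8 of 8 libraries. Map3k12 was above Atf3 in 6 of 8 libraries and Sprr1a above Ecel1 in 5 of 8, so the members of these pairs did not differ beyond their spread. No library is labelled as uninjured or injured, so these levels cannot be read as induced or not induced. In bulk retina, fewer cells of a type and less RNA per cell cannot be told apart.

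Map3k12, which encodes DLK itself, stood at 86.5, 85.3, 48.9 and 76.6 CPM in sIVs replicates 1, 3, 4 and 5, and at 74.5, 77.9, 73.2 and 74.1 CPM in PBS replicates 1, 3, 4 and 5. The PBS libraries lay close together, while the sIVs libraries held both the highest values and the lowest. Means were 74.3 ± 17.5 CPM in sIVs and 74.9 ± 2.07 CPM in PBS retinas (SD, n = 4 each). The log2 fold change was -0.01 ± 0.17 (SE; edgeR adjusted p = 0.983), with a 95% confidence interval of -0.39 to 0.37. Without sIVs replicate 4 it was 0.14, and without PBS replicate 3 it was 0.01. In sIVs replicate 4 Map3k12 lay 0.59 below its own mean on the log2 CPM scale, and its listed length is 8989 bases, within the class of long genes whose median lay 0.51 below. Sox11, of 8311 bases, lay 0.16 above its mean in the same library. Whether this shift in long genes set the Map3k12 value was not tested.

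Map3k12 (chromosome 15, 102497646 to 102517064, minus strand, mm10 per the submitters' processing notes) shares its distal end with Pcbp2, an RNA-binding protein gene on the other strand that runs from 102470539 to 102500061. Pcbp2 had 5366 to 6432 counts per library and Map3k12 had 747 to 1347. The library protocol marks strand, but the strand setting of the counting is not given in the sources used here. If strand was ignored, reads of the shared stretch cannot be assigned to either gene.

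Among genes that act on DLK or beside it, 0 of 7 tested passed in edgeR (0 unadjusted). Log2 fold changes were below 0 for 7 of 7, and their median was -0.20. Mycbp2, a ubiquitin ligase whose worm and fly counterparts limit DLK, stood at 195 ± 62.9 CPM in sIVs and 249.6 ± 27.1 CPM in PBS retinas (SD, n = 4 each; log2 fold change -0.35, and -0.18 without sIVs replicate 4). Map3k13, the sister kinase LZK, stood at 54.0 ± 15.9 CPM in sIVs and 65.6 ± 5.18 CPM in PBS retinas (SD, n = 4 each; log2 fold change -0.28, and -0.12 without sIVs replicate 4). Their lowest values, 118 and 34.8 CPM, were both in sIVs replicate 4. Without that library 5 of 7 were negative and the median was -0.05.

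Downstream of DLK lies the JNK cascade. Of 14 tested kinases, scaffolds and phosphatases, 0 passed in edgeR (0 unadjusted), log2 fold changes were above 0 in 5 and below 0 in 9, and the median was -0.04. Mapk10, the neuronal kinase JNK3, stood at 93.7 ± 11.9 CPM in sIVs and 105 ± 9.15 CPM in PBS retinas (SD, n = 4 each; log2 fold change -0.17, and -0.088 without sIVs replicate 4). Spag9, a JNK scaffold, stood at 246 ± 48.8 CPM in sIVs and 281 ± 13.2 CPM in PBS retinas (SD, n = 4 each; log2 fold change -0.19, and -0.06 without sIVs replicate 4).

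Jun was the steadiest of the 8 transcripts. It stood at 43.4, 53.3, 52.7 and 53.8 CPM in sIVs replicates 1, 3, 4 and 5, and at 49.9, 50.9, 53.5 and 54.8 CPM in PBS replicates 1, 3, 4 and 5. Only sIVs replicate 1 lay off from the rest, and the other 3 sIVs libraries fell inside the PBS range. Within groups Jun had a coefficient of variation of 7.5%, lower than that of all but 7.56% of genes tested, against 3.6% from counting error alone. The log2 fold change was -0.04 ± 0.10 (SE; edgeR adjusted p = 0.9), and the 95% confidence interval in linear terms ran from 0.829-fold to 1.14-fold. Without sIVs replicate 1 the log2 fold change was 0.03. Jun (chromosome 4, 95049034 to 95052222, minus strand) overlaps the antisense gene Junos, which had 11 to 36 counts per library against 605 to 910 for Jun. These counts are of RNA, and the phosphorylation by which JNK activates JUN was not measured.

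Atf3, which encodes a bZIP factor that dimerizes with JUN, varied 2.1-fold across libraries. It stood at 10.3, 19.1, 20.6 and 17.1 CPM in sIVs replicates 1, 3, 4 and 5, and at 10.7, 21.6, 15.4 and 13.8 CPM in PBS replicates 1, 3, 4 and 5. Replicate 1 was lowest in each group, and the highest library was in PBS. Atf3 (chromosome 1, 191170296 to 191218039, minus strand) averaged 16.8 ± 4.53 CPM in sIVs and 15.4 ± 4.59 CPM in PBS retinas (SD, n = 4 each). Its log2 fold change was 0.12 ± 0.26 (SE; edgeR adjusted p = 0.886; 95% confidence interval -0.47 to 0.72), and -0.01 without PBS replicate 1. A coefficient of variation of 28.4% within groups exceeded the 6.41% that counting error gives.

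**Figure D2:**
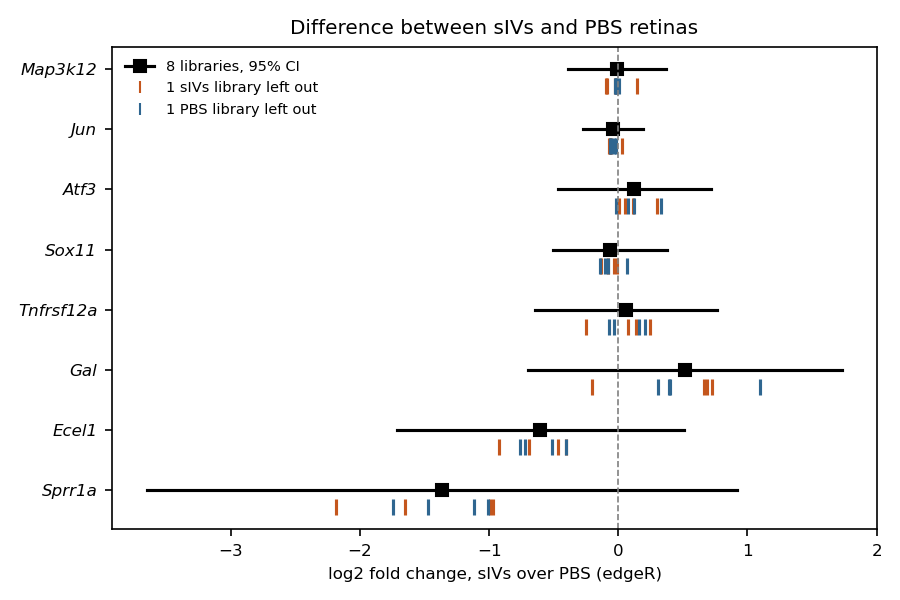
Log2 fold change of each transcript, sIVs over PBS (horizontal axis, edgeR), as black squares with 95% confidence intervals, and below each the value with 1 sIVs library (orange ticks) or 1 PBS library (blue ticks) left out. All 8 intervals include 0, from the narrow one of Jun to that of Sprr1a, which runs from -3.65 to 0.92.

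The other AP-1 genes gave a similar picture. Of 12 tested AP-1 and small MAF genes, 0 passed in edgeR (0 unadjusted), log2 fold changes were above 0 in 5 and below 0 in 7, and the median was -0.03. Jund, which encodes a JUN relative present in resting cells, stood at 48.7, 58.0, 131 and 69.2 CPM in sIVs replicates 1, 3, 4 and 5, and at 52.3, 56.3, 54.9 and 57.8 CPM in PBS replicates 1, 3, 4 and 5. Only sIVs replicate 4 was far outside the PBS range, and the log2 fold change of 0.47 ± 0.27 (SE; edgeR adjusted p = 0.81) was 0.08 without it. Mafk, a small partner of bZIP factors, stood at 10.5 ± 1.16 CPM in sIVs and 11.9 ± 0.736 CPM in PBS retinas (SD, n = 4 each; log2 fold change -0.18, and -0.10 without sIVs replicate 4).

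ATF4 and CHOP, whose composite site stands in the Atf3 window, act beside DLK and JUN after optic nerve injury in mice. Of 8 tested genes of this arm, log2 fold changes were above 0 in 7, the median was 0.14, and 0 passed in edgeR (0 unadjusted). Without sIVs replicate 4 they were above 0 in 6 of the 8, with a median of 0.053. Ddit3, which encodes CHOP, stood at 47.0 ± 17.2 CPM in sIVs and 36.8 ± 2.35 CPM in PBS retinas (SD, n = 4 each; log2 fold change 0.35, and 0.07 without sIVs replicate 4, where it reached 72.2 CPM). Another deposited entry under the name Ddit3 had no counts in any library and was not tested. Ddit4, a stress-induced inhibitor of mTORC1, stood at 112 ± 6.76 CPM in sIVs and 99.9 ± 14.5 CPM in PBS retinas (SD, n = 4 each; log2 fold change 0.16).

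Sox11, a transcription factor of developing neurons that promotes axon regrowth in some ganglion cells of the mouse and kills others when overexpressed, was low and even. It stood at 4.51, 4.26, 5.44 and 4.95 CPM in sIVs replicates 1, 3, 4 and 5, and at 4.84, 6.31, 4.23 and 4.63 CPM in PBS replicates 1, 3, 4 and 5. All sIVs libraries fell inside the PBS range, which PBS replicate 3 set at the top. Sox11 (chromosome 12, 27334264 to 27342574, minus strand) had a log2 fold change of -0.06 ± 0.20 (SE; edgeR adjusted p = 0.921; 95% confidence interval -0.50 to 0.38), and of 0.07 without PBS replicate 3. With 60 to 109 counts per library, counting error alone gave a coefficient of variation of 11.6%, near the 15.0% observed within groups.

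Among 13 other injury transcription factors, 0 passed in edgeR (0 unadjusted), log2 fold changes were above 0 in 5 and below 0 in 8, and the median was -0.03, or -0.003 without sIVs replicate 4. Klf4, which restrains axon growth of ganglion cells, stood at 1.72, 2.34, 2.23 and 2.54 CPM in sIVs replicates 1, 3, 4 and 5, and at 2.87, 3.82, 2.75 and 2.65 CPM in PBS replicates 1, 3, 4 and 5. It was the only gene of the 96 tested in the 9 pathway lists whose groups did not overlap, or 1.04% of them against the 2.01% of all genes (log2 fold change -0.45 ± 0.23 SE; edgeR adjusted p = 0.81). Klf7, which promotes axon growth, stood at 12.0 ± 5.45 CPM in sIVs and 16.6 ± 2.86 CPM in PBS retinas (SD, n = 4 each; log2 fold change -0.46, and -0.19 without sIVs replicate 4).

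Tnfrsf12a encodes Fn14, the receptor of the cytokine TWEAK, which rises in injured neurons and in other injured tissue. It stood at 6.09, 8.59, 16.0 and 9.83 CPM in sIVs replicates 1, 3, 4 and 5, and at 6.88, 12.4, 7.79 and 11.6 CPM in PBS replicates 1, 3, 4 and 5. The lowest and the highest library were both in sIVs, with the PBS libraries between them. Tnfrsf12a (chromosome 17, 23675445 to 23677468, minus strand) averaged 10.1 ± 4.20 CPM in sIVs and 9.68 ± 2.76 CPM in PBS retinas (SD, n = 4 each), a log2 fold change of 0.06 ± 0.31 (SE; edgeR adjusted p = 0.951; 95% confidence interval -0.64 to 0.77). It was -0.25 without sIVs replicate 4, -0.07 without PBS replicate 1 and -0.03 without PBS replicate 4. A coefficient of variation of 35.9% within groups exceeded the 8.14% from counting error.

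Gal encodes galanin, a neuropeptide that injured sensory and central neurons make. Counts were 9, 10, 35 and 8 in sIVs replicates 1, 3, 4 and 5, or 0.645, 0.71, 2.29 and 0.55 CPM, and 7, 7, 8 and 24 in PBS replicates 1, 3, 4 and 5, or 0.529, 0.405, 0.538 and 1.44 CPM. A single library was high in each group, and the other 6 lay between 0.405 and 0.71 CPM. In the edgeR fit without a filter on low counts, over 31766 genes, Gal (chromosome 19, 3409919 to 3414472, minus strand) had a log2 fold change of 0.52 ± 0.57 (SE; edgeR adjusted p = 0.776). It was -0.21 without sIVs replicate 4 and 1.09 without PBS replicate 5. Leaving out PBS replicate 5, a choice made after seeing the data, left the Gal groups without overlap, sIVs higher, as 1 of 8 members. The nearest libraries, sIVs replicate 5 at 0.55 CPM and PBS replicate 4 at 0.538 CPM, both had 8 counts, so only library scaling set them apart. In the same 7 libraries 3.45% of all genes past the filter were separated, a set that does not include Gal. In sIVs replicate 4 genes under 1000 bases and pigment epithelium markers were also high, and Gal is listed at 712 bases. PBS replicate 5 had 79.0 CPM of pigment epithelium markers and a median of -0.05 for short genes. The part of these shifts in the Gal values was not tested.

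Of 8 genes listed as galanin receptors and TWEAK partners, Galr1, Galr3 and Traf1 were under the filter, and of the 5 tested 4 were above 0 on the log2 fold change scale (median 0.12) and 0 passed in edgeR (0 unadjusted). Tnfsf12, which encodes TWEAK, stood at 68.1 ± 23.2 CPM in sIVs and 54.1 ± 7.51 CPM in PBS retinas (SD, n = 4 each; log2 fold change 0.33, and 0.07 without sIVs replicate 4). Traf2, an adaptor of TNF receptors, stood at 33.0 ± 6.74 CPM in sIVs and 26.8 ± 3.04 CPM in PBS retinas (SD, n = 4 each; log2 fold change 0.30, and 0.17 without sIVs replicate 4). Without sIVs replicate 4 the median of the 5 genes was -0.07.

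Ecel1, a membrane protease gene known for its induction in damaged neurons, had the lowest mean FPKM of the 8 members, next to Sprr1a, which was below it in 3 of 8 libraries. It had 3, 4, 10 and 7 counts in sIVs replicates 1, 3, 4 and 5, and 10, 15, 7 and 7 counts in PBS replicates 1, 3, 4 and 5. In CPM these were 0.215, 0.284, 0.655 and 0.481 in sIVs and 0.756, 0.868, 0.47 and 0.421 in PBS retinas. The groups overlapped, with the lowest libraries in sIVs and the highest in PBS. In the fit without a filter Ecel1 (chromosome 1, 87147655 to 87156521, minus strand) had a log2 fold change of -0.60 ± 0.52 (SE; edgeR adjusted p = 0.734), negative without each library in turn. Counting error gave a coefficient of variation of 35.6%, close to the 40.2% observed within groups, and the 95% confidence interval of the log2 fold change ran from -1.71 to 0.51.

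Sprr1a, a small proline-rich protein gene whose product promotes axon outgrowth in sensory neurons and which surface epithelia also express, was at the edge of detection. It had 0, 3, 0 and 2 counts in sIVs replicates 1, 3, 4 and 5, and 0, 6, 6 and 3 counts in PBS replicates 1, 3, 4 and 5, in all 5 and 15 counts. A count of 0 was found in 2 sIVs libraries and 1 PBS library, and the highest counts were in PBS. The fit without a filter gave Sprr1a (chromosome 3, 92483952 to 92485895, minus strand) a log2 fold change of -1.36 ± 1.06 (SE; edgeR adjusted p = 0.734), with a 95% confidence interval of -3.65 to 0.92. Of 7 markers of the ocular surface epithelium 0 passed the filter, and they summed to between 0.717 and 1.38 CPM in sIVs libraries and to between 0.361 and 8.20 CPM in PBS libraries. Their highest library was PBS replicate 4, where Sprr1a was also highest, with 48 counts of Krt15. Krt4, Krt13 and Krt14 were at 0 in all sIVs libraries, while Krt12 and Krt15 had up to 6 and 7 counts there. Trp63, of the same list, went the other way, with 3 to 10 counts per library. It stood at 0.717, 0.71, 0.589 and 0.55 CPM in sIVs replicates 1, 3, 4 and 5. In PBS replicates 1, 3, 4 and 5 it stood at 0.529, 0.521, 0.269 and 0.181 CPM. The part of surface epithelium in the Sprr1a counts was not tested.

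Other genes of the regeneration and death programmes did not pass either. Of 21 tested regeneration-associated genes 11 had values above 0 and 10 below it (median 0.02 on the log2 fold change scale), and 0 passed in edgeR (0 unadjusted), while Il6, Nts and Plaur were under the filter. Stmn3, a microtubule regulator of growing axons, stood at 131, 125, 341 and 154 CPM in sIVs replicates 1, 3, 4 and 5, and at 126, 102, 131 and 147 CPM in PBS replicates 1, 3, 4 and 5. Its log2 fold change of 0.57 ± 0.31 (SE; edgeR adjusted p = 0.81) was 0.11 without sIVs replicate 4. Hspb1, a small heat shock protein gene of regenerating neurons, stood at 6.70 ± 2.93 CPM in sIVs and 4.43 ± 0.758 CPM in PBS retinas (SD, n = 4 each; log2 fold change 0.60, and 0.38 without sIVs replicate 4). The median of the list was -0.05 without that library.

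Of 10 death effectors that act downstream of JUN, 5 had log2 fold changes above 0 and 5 below it (median 0.05, and -0.03 without sIVs replicate 4), and 0 passed in edgeR (0 unadjusted). The BH3-only death genes Bmf and Bcl2l11 had the smallest p of this list. Bmf stood at 8.25 ± 1.17 CPM in sIVs and 10.7 ± 1.77 CPM in PBS retinas (SD, n = 4 each; log2 fold change -0.37 ± 0.18 SE; edgeR adjusted p = 0.81). Bcl2l11, which encodes BIM, stood at 18.8 ± 2.35 CPM in sIVs and 21.4 ± 1.46 CPM in PBS retinas (SD, n = 4 each; log2 fold change -0.18, and -0.11 without sIVs replicate 4). Among 6 axon degeneration genes 1 had a log2 fold change above 0 and 5 below it (median -0.07), and 0 passed in edgeR (0 unadjusted). Nmnat2, the axonal NAD-synthesizing enzyme whose loss triggers degeneration, stood at 38.6 ± 3.87 CPM in sIVs and 43.2 ± 1.71 CPM in PBS retinas (SD, n = 4 each; log2 fold change -0.16, and -0.099 without sIVs replicate 4). Its nuclear relative Nmnat1 stood at 8.36 ± 1.54 CPM in sIVs and 6.90 ± 1.35 CPM in PBS retinas (SD, n = 4 each; log2 fold change 0.28, and 0.17 without sIVs replicate 4).

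**Figure D3:**
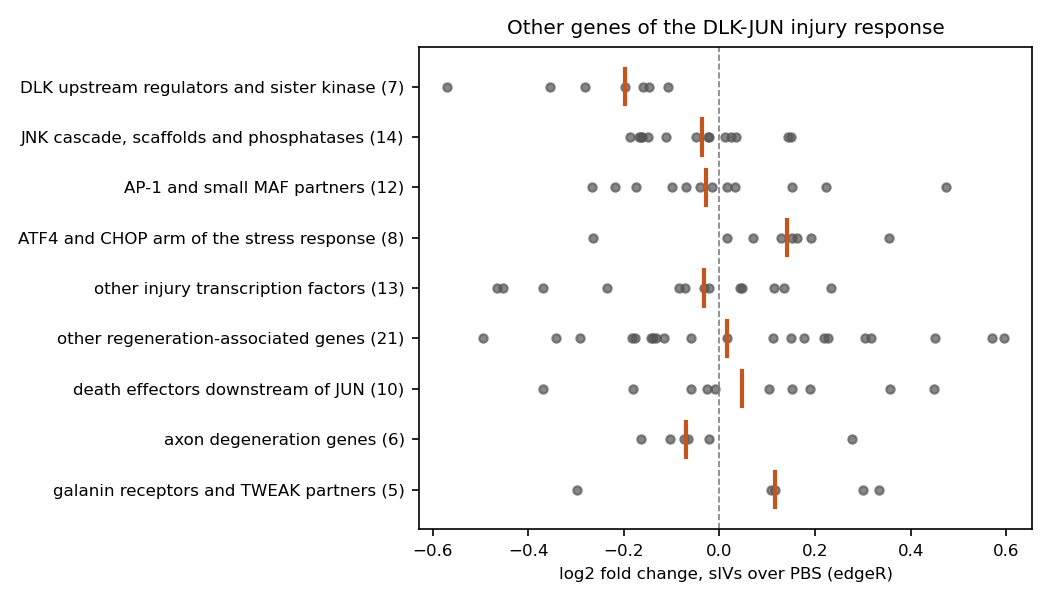
Log2 fold change, sIVs over PBS (horizontal axis, edgeR), of the 96 genes tested in 9 lists of the injury response, 1 point per gene, with the number of genes in brackets and the list median as an orange line. Values run from -0.57 to 0.60 on both sides of 0, and the DLK regulators are the list with all 7 points below 0.

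Over the 9 lists 43 of 96 tested genes had log2 fold changes above 0, or 44.8%, against 51.3% of all genes tested. Their median was -0.02, against 0.01 over all genes tested.

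The members did not move as 1 block across libraries. Replicate 1 of the sIVs group was lowest of the 8 in Atf3, Jun, Tnfrsf12a and Ecel1, and highest in Map3k12. Replicate 4 of the sIVs group was highest in Gal and Tnfrsf12a and lowest in Map3k12. Replicate 3 of the PBS group was highest in Atf3, Sox11 and Ecel1 and lowest in Gal.

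**Figure D4:**
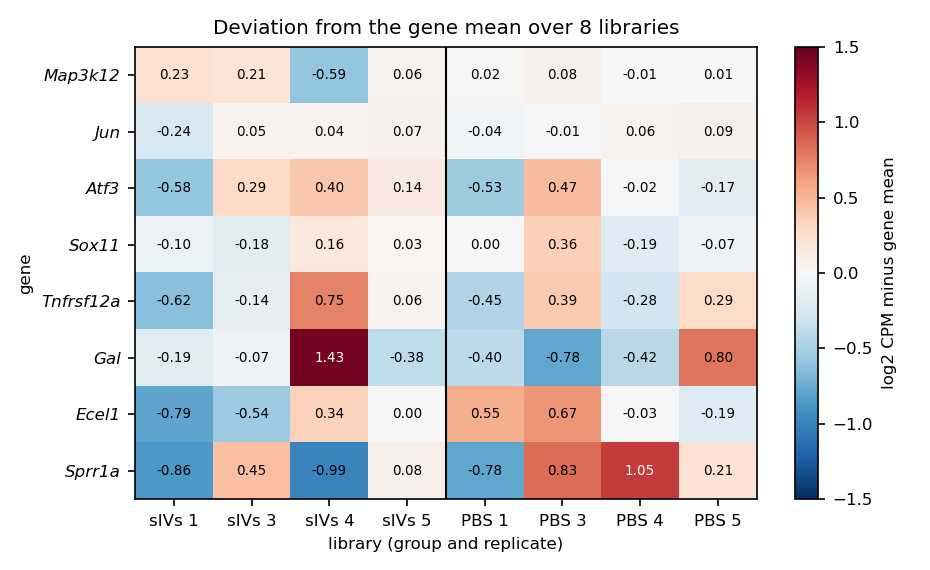
Deviation of each transcript (rows) in each library (columns, sIVs left of the line and PBS right of it) from its own mean over the 8 libraries, in log2 CPM with a prior count of 2, from blue (lower) to red (higher). Values range from -0.99 for Sprr1a to 1.43 for Gal, both in sIVs replicate 4, and rows differ in which libraries are high.

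Relations across the 8 libraries were computed for the 10 pairs of filtered members, and for each of the 5 against the mean log2 CPM of the gliosis list and of the ganglion cell list, 20 relations in all. Tnfrsf12a followed the gliosis list most closely by rank (Spearman rho = 0.952, exact permutation p = 0.00114, adjusted p = 0.0228; Pearson r = 0.797, exact permutation p = 0.012, adjusted p = 0.0825; n = 8). The gliosis score was -1.05, 0.33, 1.22 and 0.77 in sIVs replicates 1, 3, 4 and 5, and -2.63, 0.78, -0.07 and 0.64 in PBS replicates 1, 3, 4 and 5. Without sIVs replicate 1 and PBS replicate 1, the libraries farthest from the median score, Pearson r was 0.927. It was 0.78 without sIVs replicate 4 and 0.821 on deviations from the group means. The gliosis list holds none of the 8 members, and the libraries of a relation share their depth and composition. The list was chosen with earlier results of these data known, and the adjustment covers only the 20 relations. How many other genes follow the score as closely was not computed, so the relation is not shown to be particular to Tnfrsf12a.

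Atf3 had r = 0.824 with the gliosis list (exact permutation p = 0.00791, adjusted p = 0.0825; rho = 0.833, exact permutation p = 0.0154, adjusted p = 0.145; n = 8). Without the same pair of libraries r was 0.484, so the relation rested on them. Atf3 and Tnfrsf12a had r = 0.773 (exact permutation p = 0.0272, adjusted p = 0.109; rho = 0.81, exact permutation p = 0.0218, adjusted p = 0.145; n = 8), and r was 0.437 without that pair. Tnfrsf12a had r = 0.818 and rho = 0.738 with the ganglion cell list (exact permutation p = 0.0124 and 0.0458, adjusted p = 0.0825 and 0.183; n = 8), with r = 0.514 without sIVs replicate 4 and PBS replicate 5. Map3k12 had r = -0.799 and rho = -0.405 with the same list (exact permutation p = 0.0199 and 0.327, adjusted p = 0.0997 and 0.545; n = 8), and r was -0.279 without those libraries.

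Jun and Atf3, partners in AP-1 dimers, had r = 0.593 and rho = 0.19 (exact permutation p = 0.102 and 0.665, adjusted p = 0.255 and 0.74; n = 8). Without sIVs replicate 1 and PBS replicate 1 their r was -0.861, so the pooled sign rested on those libraries. Map3k12 and Jun, which encode the kinase DLK and the JNK target JUN, had r = -0.336 and rho = -0.429 (exact permutation p = 0.278 and 0.299, adjusted p = 0.428 and 0.545, n = 8). Map3k12 and Tnfrsf12a had r = -0.708 (exact permutation p = 0.0353, adjusted p = 0.118) and rho = -0.452, and r was 0.084 without sIVs replicates 1 and 4. Sox11 and the ganglion cell list had rho = 0.762 (exact permutation p = 0.0368, adjusted p = 0.183) and r = 0.508. None of the other relations had an adjusted p under 0.05 by either measure.

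**Figure D5:**
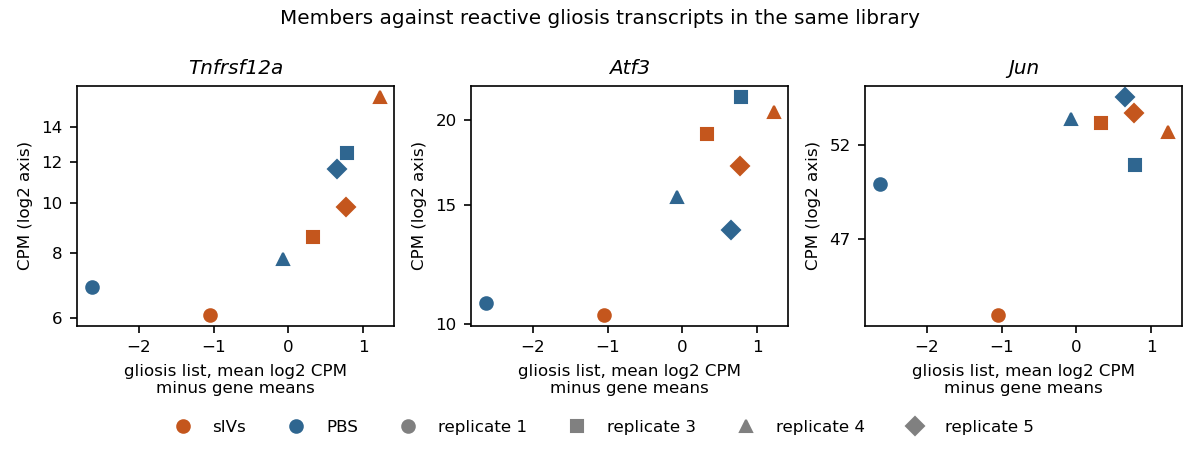
CPM of Tnfrsf12a, Atf3 and Jun (vertical axes, log2 scale) against the gliosis score, the mean log2 CPM of 12 gliosis genes minus their means over the libraries (horizontal axes), in the sIVs (orange) and PBS (blue) libraries, with symbols for the replicate number. Tnfrsf12a runs between 6.09 and 16.0 CPM with the order of the score (rho = 0.952), while Jun stays between 49.9 and 54.8 CPM in all libraries but sIVs replicate 1.

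The protein-coding genes most like each filtered member were taken from 11733 genes at a mean of at least 5 CPM, by Pearson r of log2 CPM over the 8 libraries. As the highest of many, these values describe likeness and carry no test. For Tnfrsf12a they were Sphk1 (r = 0.982), Cnp (r = 0.973) and Rasl10b (r = 0.971). For Atf3 they were Susd4 (r = 0.948), Tmem184b (r = 0.945) and E2f6 (r = 0.94), and for Jun they were Fyn (r = 0.973), Adra1d (r = 0.969) and Vit (r = 0.949). Map3k12 was most like Plekhh1 (r = 0.987), Adam19 (r = 0.987) and Ago4 (r = 0.982), whose levels of 2.23, 2.82 and 18.6 CPM in sIVs replicate 4 were their lowest of the 8 libraries. Sox11 was most like Pex26 (r = 0.943), Smim17 (r = 0.928) and Pim1 (r = 0.898).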

How the data were processed

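Per the file headers, the deposited tables list unnormalized counts and, for the same 54532 genes, FPKM values that the authors scaled by gene length and library total. The submitters' processing notes name mm10 as build. Aligner, counter and strand setting: not given in the sources used here. Groups and replicate numbers came from the titles. Genes were kept by filterByExpr (17004 genes), scaled with TMM factors and tested with edgeR 4.0.16 (R 4.3.3), quasi-likelihood F test, group as the only term, two-sided, with Benjamini-Hochberg adjustment over all genes at 0.05. Members under the filter took their values from the same fit on all genes with a count. Standard errors are the absolute log2 fold change over the square root of F and are approximate. CPM used the TMM-scaled library size. Alternatives used DESeq2 1.42.0, limma 3.58.1 (voom with quality weights, and log2(FPKM + 1) or log2(FPKM + 0.1)), RLE factors, no filter, a replicate block and libraries left out. Exact permutation tests of correlations ran over all orders of the 8 libraries. They treat the libraries as exchangeable and take no account of any likeness between same-numbered libraries. The edgeR fits with and without the replicate block, DESeq2 and limma-voom were checked on simulated counts for recovery of planted fold changes. The FPKM fits and the permutation tests were not checked in this way.

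Members and lists were chosen with earlier results of these data known. Genes named besides the members are the 2 of smallest p in each of 9 pathway lists, the 3 most like each filtered member, genes that overlap a member, and marker genes at their list's highest level or at 0. Some of the listed genes under the filter, and marker genes below 0.05 before adjustment, are also named, chosen after their values were seen. No chance test was made on the fold changes of any list. The gliosis and ganglion cell lists entered the permutation tests of correlation, as scores set against the filtered members. Both tables hold the same measurement, and precision was set by the spread between libraries (common biological coefficient of variation 0.254) as well as by depth.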

Additional observations from a re-analysis of the deposited data

Results flagged for a closer look

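In 70 groups of 4 libraries, 6 held a library whose gap to its nearest neighbour exceeded 0.829 of the group's range, and chance flags about 1 in 20 groups. Jun was low in sIVs replicate 1, at 43.4 CPM against 52.7 CPM in the next library. Gal was high in sIVs replicate 4, at 2.29 CPM against 0.71 CPM in the next, and in PBS replicate 5, at 1.44 CPM against 0.538 CPM. Summed pigment epithelium markers were high in sIVs replicate 4, at 465 CPM against 84.4 CPM, and so was Stmn3, at 341 CPM against 154 CPM. Map3k13 was high in PBS replicate 1, at 73.3 CPM against 63.9 CPM.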

How the results depend on the processing

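Under the 16 alternatives (15 for the 3 members under the filter) 0 members, 0 pathway genes and 0 of the genes past the filter were called, and the lowest adjusted p of a member was 0.578. Over all genes with a count, 1 gene was called with limma on log2(FPKM + 1) and 2 genes with PBS replicate 1 and sIVs replicate 4 left out together, against 0 with all 8 libraries in edgeR (803 unadjusted), and none of these was a member. Of 125 member values under an alternative, 109 kept the direction of the value with all 8 libraries. With sample quality weights in limma-voom, log2 fold changes were -0.086 for Atf3, 0.13 for Map3k12 and -0.33 for Tnfrsf12a. Without both PBS replicate 1 and sIVs replicate 4 they were -0.13 for Atf3, 0.14 for Map3k12, -0.33 for Gal, -0.38 for Tnfrsf12a, -0.085 for Jun and -0.15 for Sox11; the cause was not tested. With each library left out in turn they ran from -0.01 to 0.33 for Atf3, -0.07 to 0.027 for Jun, -0.14 to 0.069 for Sox11, -0.093 to 0.14 for Map3k12, -0.21 to 1.09 for Gal and -0.25 to 0.24 for Tnfrsf12a, and Ecel1 (-0.92 to -0.40) and Sprr1a (-2.18 to -0.97) stayed negative. Members with groups free of overlap numbered 0 to 1 when a library was left out, a setting chosen after seeing the data. The 1 was Gal, itself under the filter, without PBS replicate 5, where 3.45% of genes past the filter were separated. Of 144 list medians under an alternative, 140 moved by less than the spread between libraries, but some of these changed sign. The regeneration median went from 0.02 to -0.16 without PBS replicate 1. That of the other injury transcription factors went from -0.03 to 0.05 without sIVs replicate 1. That of the death effectors went from 0.05 to -0.09 without both PBS replicate 1 and sIVs replicate 4.

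Deviations from the group means correlated at 0.596, 0.0246, 0.227 and 0.514 between same-numbered libraries 1, 3, 4 and 5. For sIVs replicates 1, 4 and 5 the same-numbered PBS library was the best match. Replicate 3 of the sIVs group correlated best with PBS replicate 1 (0.218). The labels do not say that the numbers pair the samples, so the main fit used no pairing. Whether same-numbered libraries share a factor was not tested. The replicate block gave 0 genes past the threshold and 588 at an unadjusted p under 0.05, against 255 without it. Counts of 0 to 35 for Gal, Ecel1 and Sprr1a limit what can be detected in them. Fold changes on the log2(FPKM + pseudocount) scale understate those of low genes.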

Other observations

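Markers of other retinal cells, listed as a check of the tissue, had 0 genes past the threshold in edgeR. At an unadjusted p under 0.05 were 1 of 12 microglia genes, 2 of 9 pigment epithelium genes and 0 of the other tested markers, against 1.5% of all genes tested. The microglia gene was P2ry12 (log2 fold change 0.57), and the pigment epithelium genes had opposite signs, Rgr at 2.48, with 153 CPM in sIVs replicate 4, and Mitf at -0.99, with 33.8 CPM in PBS replicate 4. Median log2 fold changes were 0.20 for 11 rod genes, 0.03 for 10 Müller glia genes, -0.05 for 9 amacrine cell genes, 0.62 for 12 microglia genes, 1.17 for 9 pigment epithelium genes, 0.18 for 8 vascular and fibroblast genes, 0.40 for 12 gliosis genes and 0.02 for 16 ganglion cell genes. Without sIVs replicate 4 they were 0.13, -0.07, -0.02, 0.27, 0.02, 0.21, 0.10 and -0.01 in the same order.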
